A study of Mus musculus with 288 samples.

Results

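Toll-like receptors (TLR), NOD receptors and the adaptors and kinases that carry their signal were followed as a group of 36 genes in mouse bone marrow-derived macrophages (BMDMs). The genes were chosen by name: receptors, co-receptors, adaptors and kinases from the cell surface down to the IKK family. All 36 symbols were present in the UMI table, which lists 23481 genes, of which 14708 had at least 1 UMI (a UMI is a random barcode, so that 1 UMI stands for 1 captured transcript). The cells came from C57BL/6 mice of 12 weeks and had been grown from bone marrow for 7 days with M-CSF. They were held with DMSO (the solvent control), or for 24 h with dCA at 100 nM or BRD-6989 at 1 uM. The labels give dCA and BRD-6989 as CDK8 inhibitors and state no duration for DMSO. No genetic change is named in any group. Cells then had no stimulus (NoStim) or 1 of 11 stimuli, and were collected at 15, 30, 45, 60, 90, 120, 150 or 180 min, with 1 well for each combination and 288 wells in all. The stimuli, spelled as in the labels, were SeV, Pam3cys, Poly(I:C), LPS, CpG, FLA, R848, MDP, MDP_LPS, TDB and Zymosan. The labels name no separate animals or cultures, so each p-value below measures only the spread between these wells or between libraries summed from them, which may be technical. Each pretreatment filled a plate of its own, each stimulus a plate column and each time a plate row, so that none of these can be told apart from its place on the plate.

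TLRs are membrane proteins that bind microbial molecules, some at the cell surface (Tlr1, Tlr2, Tlr4, Tlr5, Tlr6) and others in endosomes, where they bind nucleic acids (Tlr3, Tlr7, Tlr8, Tlr9, Tlr13). Most signal through the adaptor Myd88 to the IRAK kinases, Traf6 and the TAK1 complex, which activates the IKK complex and NF-kappaB. Tlr3 signals through Ticam1 (TRIF), and Tlr4 uses both routes, the second leading to Tbk1 and Ikbke and to interferon genes. Nod1 and Nod2 are cytosolic sensors of peptidoglycan fragments that signal through Ripk2, and C-type lectin receptors such as Clec7a (dectin-1) and Clec4e (Mincle) signal through Syk, with Fcer1g as the signalling chain of Clec4e, and Card9.

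Wells held 37542 to 127223 UMI (median 77485), and 21810 to 70797 without Rn45s, the ribosomal RNA precursor, which was left out of all totals. Rn45s took 52.7% ± 6.88 of the UMI on the DMSO plate, 49.0% ± 7.04 on the dCA plate and 43.6% ± 6.75 on the BRD-6989 plate (SD, n = 96 wells each), so that this sign of library quality moved with the pretreatment. All 11 macrophage markers found in the table had UMI, with a sum of 9427 to 9687 CPM (UMI counts-per-million of UMI without Rn45s) on the 3 plates. The marker lists of 9 other cell types summed to between 0 and 29.2 CPM on any plate. In the T cell list Cd3e and Cd3g were at 0 while Cd3d had 80 UMI and Cd4 15, in the mast cell list Cpa3 and Mcpt4 were at 0 while Kit had 30, and all 3 erythroid genes were at 0, and the highest sums were those of the endothelial list, of which Kdr made up 257 UMI. In these bulk wells fewer cells and less RNA per cell cannot be told apart.

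Levels are given in CPM over libraries made by summing the 8 times of each pretreatment and stimulus (36 libraries of 227325 to 449471 UMI). Each mean and SD therefore takes in NoStim and stimulated libraries together. Counting at the 3' end needs no division by transcript length, but how well each gene's 3' end was captured was not measured, so the order of levels between genes is a description. The 36 genes together took 43742 UMI, and 44.4% of these came from Fcer1g and Cd14. A mean level of at least 100 CPM was found for 11 members, a level of 20 to 100 for 13 and a lower level for 12.

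Among the surface receptors, Tlr2, which pairs with Tlr1 or Tlr6 to bind lipopeptides, had the highest mean at 160.4 ± 83.9 CPM (SD, n = 36 libraries; lowest 27.0, median 159.7, highest 359.8). Tlr4, the LPS receptor, stood at 65.5 ± 28.1, Tlr1 at 39.4 ± 21.2 and Tlr6 at 9.49 ± 9.94. The ranges of Tlr2, Tlr4 and Tlr1 overlapped, Tlr4 running from 21.9 to 129.04 and Tlr1 from 7.66 to 98.02. Most of these libraries were stimulated, and in the pooled NoStim wells Tlr4, at 92.2, stood above Tlr2, at 59.2. That order held on the dCA plate (93.4 and 86.7) and the BRD-6989 plate (116.8 and 27.0), but not on the DMSO plate (61.2 and 68.4). Tlr5, the flagellin receptor, gave 24 UMI in 12 of 288 wells and was at 0 in 25 of the 36 libraries.

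The LPS receptor's partners lay far apart. Cd14, which hands LPS to Tlr4 and serves several other TLRs, had 425 ± 167 CPM (SD, n = 36 libraries; lowest 171, median 431, highest 735), while Ly96 (MD-2), the subunit of Tlr4 that holds LPS, had 8.59 ± 7.97 and was at 0 in 9 libraries. No library of Ly96 came near any library of Cd14, its highest being 29.7. Unc93b1, the chaperone that carries endosomal TLRs out of the endoplasmic reticulum, had 146 ± 51.7.

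The endosomal receptors spanned a wide range of levels. Tlr13, a sensor of bacterial ribosomal RNA, and Tlr7, a sensor of single-stranded RNA, had nearly the same mean, 132 ± 44.5 and 131 ± 43.9 CPM (SD, n = 36 libraries). Tlr8 followed at 43.5 ± 22.0, with its 489 UMI found in 125 wells, and Tlr3, the receptor of double-stranded RNA, at 16.7 ± 16.5 with 6 libraries at 0. Tlr9, the receptor of unmethylated CpG DNA, had 7 UMI in 4 of 288 wells and was at 0 in 32 libraries, the lowest level of all 36 members.

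The adaptors were low. Tirap, which bridges Tlr2 and Tlr4 to Myd88, had 47.6 ± 23.3 CPM, Myd88 itself 31.3 ± 21.1, Ticam2 (TRAM) 20.9 ± 16.1 and Ticam1 (TRIF) 15.6 ± 10.8 (SD, n = 36 libraries). The ranges of these 4 adaptors overlapped. Among the IRAK kinases the order was Irak1 at 184 ± 43.6, Irak4 at 85.9 ± 37.7, Irak2 at 69.7 ± 34.6 and Irak3 (IRAK-M, a negative regulator) at 10.4 ± 11.3, with Irak4 and Irak2 closer than their spread. Irak1 ran from 112 to 293 and Irak3 from 0 to 51.8, so that these did not overlap.

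In the TAK1 complex the adaptor Tab2 had 262 ± 68.8 CPM, the kinase Map3k7 (TAK1) 48.6 ± 22.2 and Tab1 22.3 ± 15.2, while the ubiquitin ligases Traf3 and Traf6 had 12.9 ± 10.04 and 10.1 ± 9.04 (SD, n = 36 libraries). Of the IKK family, Tbk1 had 127 ± 56.0, Ikbke 104.5 ± 40.4, the regulatory subunit Ikbkg (NEMO) 72.1 ± 28.8 and Ikbkb 44.5 ± 20.5, each within the spread of its neighbour. In the NOD pathway Ripk2 had 28.7 ± 22.4, Nod2 14.5 ± 17.1, Card9 11.1 ± 11.02 and Nod1 10.8 ± 10.9, and the lowest library of each was at 0. Of the lectin receptor signalling genes, Fcer1g at 1261 ± 188 had the highest mean of all members, and the kinase Syk stood at 137 ± 42.0. The UMI of some members sat in few wells, for example 328 UMI of Ripk2 in 97 wells and 163 of Nod2 in 56, so that wells varied by more than single counts.

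**Figure D1:**
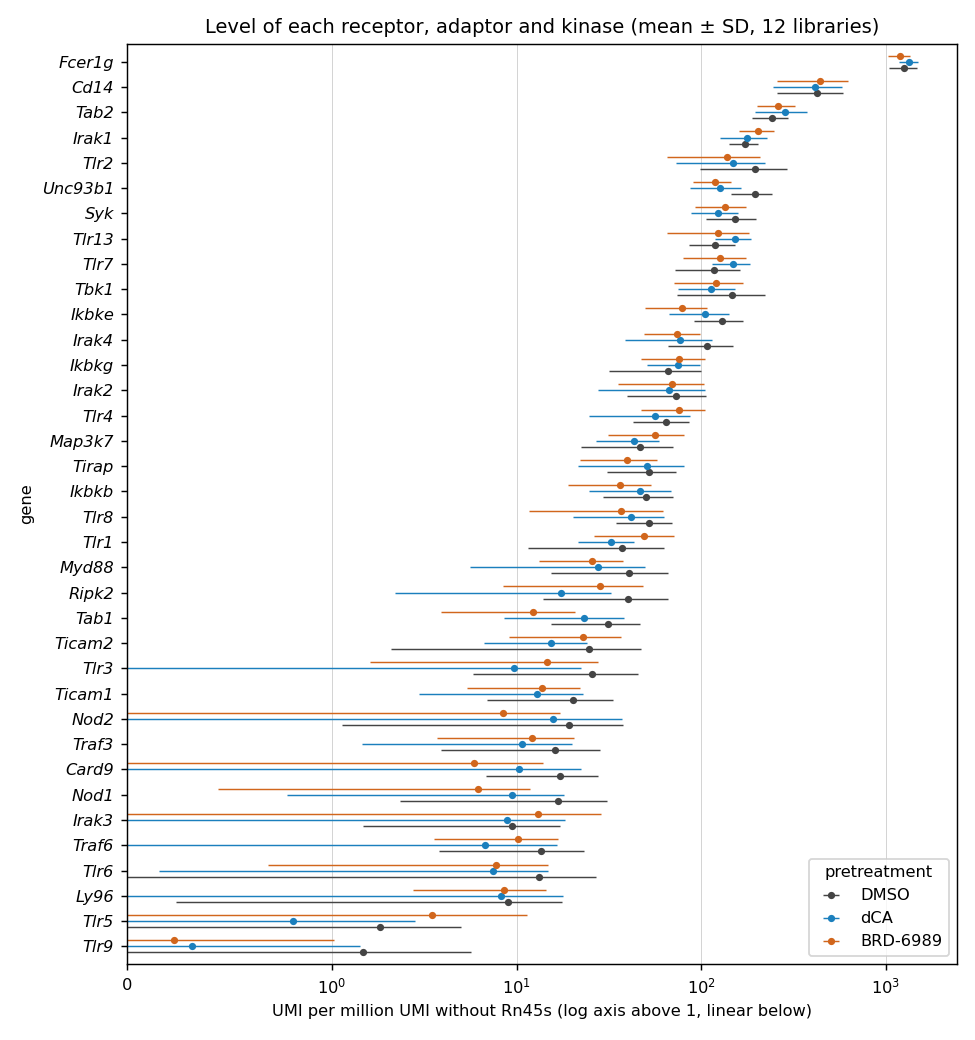
Mean level of each of the 36 members on the DMSO, dCA and BRD-6989 plates, in CPM on an axis that is logarithmic above 1 and linear below; bars are the SD over 12 libraries, 1 for each stimulus condition, and stop at 0. Levels run from 1261 for Fcer1g to 0.675 for Tlr9 (mean over all 36 libraries), and Tlr5 and Tlr9 stand apart at the low end.

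How the level of each receptor related to its ligand was read from the 24 NoStim wells, 911395 UMI in all, with exact 95% Poisson intervals that cover counting error only. These wells pool the DMSO, dCA and BRD-6989 plates, whose levels differed for several receptors. The known receptors of the stimuli were found at levels from 0 to over 100 CPM, and the 2 that were scarcely detected, Tlr9 and Tlr5, belong to stimuli that still gave a response. Tlr9 had 0 of 911395 UMI, which allows a level of up to 3.29 CPM (3 counts; the exact interval ends at 4.05), yet CpG raised 94 genes past the threshold (edgeR's quasi-likelihood test against NoStim, Benjamini-Hochberg adjusted p under 0.05 over 5771 genes) and lowered 19. Tlr5 had 1 UMI, or 1.10 CPM (0.028 to 6.11), and FLA raised 60 genes and lowered 6; the labels do not spell out FLA, which is read here as flagellin. No member's level says whether its protein was present.

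The other receptors were detected. Tlr4 had 92.2 CPM (73.5 to 114), with 61.2 on the DMSO plate, 93.4 on the dCA plate and 116.8 on the BRD-6989 plate, and LPS raised 207 genes and lowered 34. Tlr2 had 59.2 (44.5 to 77.3) and Tlr1 34.01 (23.1 to 48.3), and Pam3cys, a lipopeptide bound by that pair, raised 113 genes and lowered 16. By plate Tlr2 stood at 68.4, 86.7 and 27.0 (DMSO, dCA and BRD-6989), and Tlr1 at 21.6, 36.7 and 41.9. Tlr7 had 124 (102.2 to 149), and R848, a small-molecule agonist of Tlr7, raised 137 and lowered 22. Tlr3 had 24.1 (15.1 to 36.5), and Poly(I:C), a double-stranded RNA mimic, raised 132 and lowered 35. Ifih1, a cytosolic sensor of the same kind of RNA that is not a member, had 77.9 (60.8 to 98.3).

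Level and response did not run in the same order. Nod2 had 9.87 CPM (4.52 to 18.7), and MDP, the peptidoglycan fragment it senses, raised 5 genes and lowered 0. The 9 UMI of Nod2 were 1, 1 and 7 on the DMSO, dCA and BRD-6989 plates. Clec4e, which like Clec7a and Ddx58 is no member, had 115 (94.2 to 139), and TDB, a glycolipid bound by it, raised 6 and lowered 0. Clec7a had 46.1 (33.2 to 62.3), and Zymosan, a yeast cell wall preparation bound by Clec7a and by Tlr2 with Tlr6, raised 172 and lowered 21. Ddx58 (RIG-I), a sensor of viral RNA, had 182 (155 to 212), but 378 on the DMSO plate alone, and SeV raised 11 genes and lowered 1. These are 10 pairs of a receptor and a stimulus, given side by side as a description.

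The NF-kappaB reporter of the same wells, taken as its ratio to the minimal promoter reporter at 60 to 180 min, gave a second readout in which all 11 stimuli stood above NoStim on each of the 3 plates. The fold over NoStim was 4.66 ± 0.76 for CpG and 3.98 ± 0.22 for FLA (SD, n = 3 plates), against 5.73 ± 1.54 for LPS, 5.14 ± 0.91 for R848, 4.42 ± 0.76 for Pam3cys and 4.57 ± 0.03 for Poly(I:C). The CpG plates, at 3.91, 5.43 and 4.65 for DMSO, dCA and BRD-6989, overlapped those of LPS at 4.14, 7.22 and 5.84. MDP gave 3.55 ± 1.03, TDB 2.95 ± 1.31 and SeV 2.31 ± 0.27. The plates of MDP (4.64, 3.42 and 2.60) and TDB (4.46, 2.11 and 2.27) lay apart, and on the DMSO plate both stood above LPS and CpG. Tnf, an early NF-kappaB target, rose by 2.68 ± 0.29 with LPS on the log2 scale (± SE, adjusted p = 4.02e-10, edgeR) and stood at 1.00 ± 0.30 with CpG (adjusted p = 0.0800) and 0.72 ± 0.30 with FLA (adjusted p = 0.424). Tnf was also called higher with Pam3cys, Poly(I:C), R848, MDP_LPS and Zymosan (1.11 to 2.72). With MDP, TDB and SeV it stood at -0.19 ± 0.32, -0.39 ± 0.33 and -0.45 ± 0.33, below NoStim on each plate (adjusted p = 0.998, 0.970 and 0.942, edgeR). Ifnb1 was found on all 3 plates with SeV (96.02, 39.4 and 67.8 CPM from 60 min on), LPS (19.8, 44.8 and 33.3) and MDP_LPS (83.0, 43.2 and 30.1), against 0 in NoStim. These levels rest on few UMI: 18, 8 and 15 with SeV, 3, 8 and 8 with LPS, and 16, 8 and 8 with MDP_LPS. Poly(I:C) had 4, 0 and 0 UMI of Ifnb1, and FLA 0, 0 and 6.

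**Figure D2:**
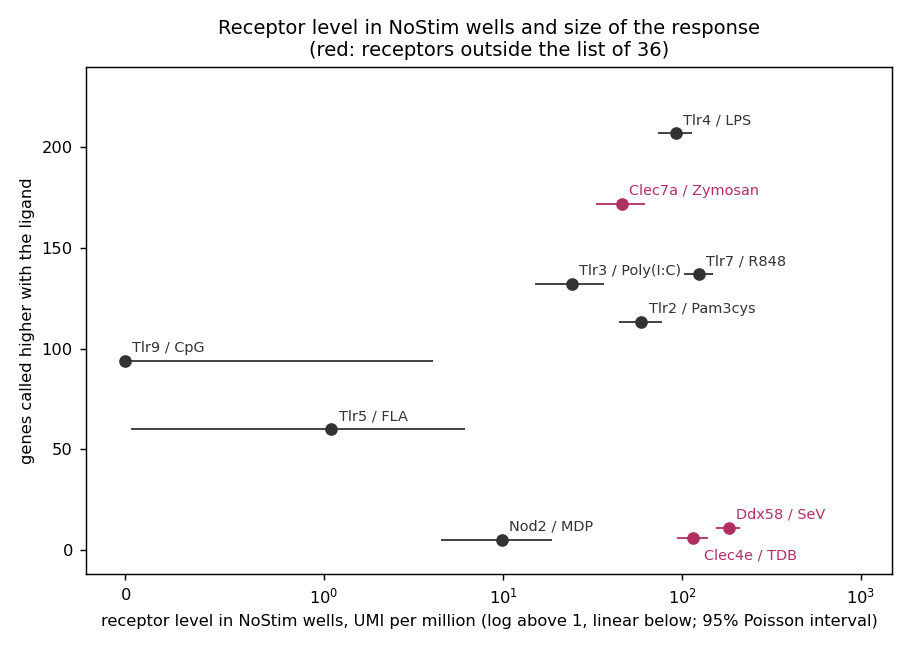
Level of the receptor in the NoStim wells (x axis, CPM, 24 wells pooled, bars are exact 95% Poisson intervals; logarithmic above 1, linear below) against the number of genes called higher with its ligand (y axis, edgeR, of 5771 tested), 1 point for each pair of receptor and stimulus; receptors drawn in red are not members. Tlr9 with CpG and Tlr5 with FLA lie at the far left with 94 and 60 genes, and Clec4e with TDB lies to the right with 6.

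Stimulation raised 3 of the 36 genes as a mean over the 11 stimuli: Tlr2, Cd14 and Ikbke. Libraries for this comparison were the 5 times from 60 min on, summed per pretreatment and stimulus (36 libraries of 130076 to 273442 UMI), with pretreatment as a block. For a test a gene needed 5 UMI or more per library on average, which 22 of 36 members had. Since the mean was taken over all libraries, the members that were not tested are no sign of an absent response. Of the 22, 3 were higher and 0 lower, where 2.13% of all 5771 genes were higher and 0.503% lower. The median log2 change was 0.35 over these members and -0.03 over all genes.

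Tlr2 had 51.9, 99.1 and 27.6 CPM in NoStim on the DMSO, dCA and BRD-6989 plates. With LPS it had 528, 207 and 308, and with Pam3cys, its own ligand, 338.5, 255 and 307. Every LPS and Pam3cys library lay above every NoStim library. The log2 change was 2.60 ± 0.40 with LPS (± SE, adjusted p = 3.83e-06, edgeR) and 2.38 ± 0.40 with Pam3cys (adjusted p = 5.17e-05), and 1.80 ± 0.34 as a mean of 11 stimuli (adjusted p = 0.000349). Without the BRD-6989 plate the Pam3cys call (0.0581), the Zymosan call (0.0657) and that of the mean (0.104) ended. With Zymosan, the other ligand that Tlr2 binds, the plates stood at 158, 354.5 and 215.5 and the change was 2.15 ± 0.41 (adjusted p = 0.000225). With CpG and FLA the Tlr2 call ended without the BRD-6989 plate (0.219 and 0.506), and with FLA also without the DMSO plate (0.133).

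Cd14 rose with the same 8 stimuli from a higher base. It had 219, 302.5 and 271 CPM in NoStim on the DMSO, dCA and BRD-6989 plates, 963, 700.5 and 907 with LPS and 845, 885 and 838.5 with MDP_LPS. The LPS and MDP_LPS libraries lay above all those of NoStim. The log2 change was 1.80 ± 0.23 with LPS (adjusted p = 3.61e-08, edgeR), 1.79 ± 0.23 with MDP_LPS (3.29e-08) and 0.93 ± 0.18 as a mean of 11 stimuli (0.000647). TDB at 191, 279.9 and 212, and SeV at 171, 197 and 271, lay within or below the NoStim values. With Poly(I:C) and FLA the Cd14 call ended without any 1 plate (adjusted p = 0.0805 to 0.389 and 0.0580 to 0.166, edgeR), with CpG without the DMSO (0.180) or BRD-6989 plate (0.149), and with R848 without the BRD-6989 plate (0.0783).

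Ikbke is the IKK-related kinase that with Tbk1 phosphorylates interferon regulatory factors. At the later times summed for this comparison it had 46.1, 46.9 and 45.9 CPM in NoStim (DMSO, dCA and BRD-6989 plates). Over all 8 times its NoStim levels were less even, at 86.4, 56.7 and 35.9 CPM (24, 17 and 12 UMI). With Poly(I:C) Ikbke had 284, 213 and 179 at the later times. This was the largest change of this gene, 2.29 ± 0.45 on the log2 scale (± SE, adjusted p = 0.000739, edgeR). It also rose with R848 (2.07 ± 0.46), CpG (1.86 ± 0.46) and Zymosan (1.80 ± 0.46). Those calls ended without the DMSO plate (adjusted p = 0.0556, 0.287 and 0.133, edgeR) and without the dCA plate (0.0806, 0.153 and 0.123), and those with CpG and Zymosan also without the BRD-6989 plate (0.0578 and 0.0674). With LPS its values of 145, 95.3 and 104 lay above NoStim on each plate, but the change of 1.38 ± 0.47 missed the threshold (adjusted p = 0.0879). The mean over 11 stimuli was 1.44 ± 0.38 (adjusted p = 0.0198, edgeR), a call that ended without the DMSO plate (0.305) and without the dCA plate (0.200). The call of the mean also ended with total read counts, in single wells, over all 8 times and with no block.

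Fcer1g was called with Poly(I:C) and no other stimulus. It had 1688, 1589 and 1759 CPM there against 1072, 1100.3 and 951 in NoStim (DMSO, dCA and BRD-6989 plates), with no overlap, a log2 change of 0.76 ± 0.14 (± SE, adjusted p = 0.000257, edgeR). Without the BRD-6989 plate the adjusted p was 0.0665. With Pam3cys, LPS and FLA, which were not called, every library of Fcer1g also lay above every NoStim library. Fcer1g was higher than NoStim on 3 plates with MDP, MDP_LPS and TDB, and on 2 with CpG, R848, Zymosan and SeV. An added test of any difference among the 11 stimuli found 4 members: Cd14 (adjusted p = 1.20e-11), Tlr2 (3.07e-06), Fcer1g (0.0362) and Ikbke (0.0402), where 6.27% of 5771 genes were called.

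By stimulus, members were called higher in 8 of 11 cases. All 11 comparisons share the same NoStim libraries, so these calls are not independent of each other. Tlr2 and Cd14 were the 2 members called with Pam3cys (1.96% of all genes called higher), LPS (3.59%), MDP_LPS (3.47%) and FLA (1.04%). With CpG (1.63%), R848 (2.37%) and Zymosan (2.98%) Ikbke was called as well, and with Poly(I:C) (2.29%) both Ikbke and Fcer1g were, which makes 4. No member was called with MDP (0.0866%), TDB (0.104%) or SeV (0.191%), where 2, 0 and 1 of the 22 had an unadjusted p under 0.05 and DESeq2 called 0. No member was called lower with any stimulus, where the shares of all genes were 0.277% for Pam3cys, 0.606% for Poly(I:C), 0.589% for LPS, 0.329% for CpG, 0.104% for FLA, 0.381% for R848, 0% for MDP, 0.399% for MDP_LPS, 0% for TDB, 0.364% for Zymosan and 0.0173% for SeV.

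Leaving out a plate changed several of these counts. Without the BRD-6989 plate 1 member was called with Pam3cys, 2 with Poly(I:C), 0 with CpG, 0 with FLA and 1 with Zymosan. Without the DMSO plate it was 1 with CpG and 0 with FLA, and without the dCA plate 1 with FLA. The count of 2 with LPS and with MDP_LPS was the same without any 1 plate.

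The receptors of the other ligands were not called with their own stimulus. Tlr4 had 63.4, 67.8 and 142 CPM in NoStim and 39.6, 112 and 79.03 with LPS (DMSO, dCA and BRD-6989 plates), which overlap, a log2 change of -0.08 ± 0.66 (adjusted p = 0.984, edgeR). Tlr7 had 63.4, 125 and 124 in NoStim and 101.5, 204 and 78.1 with R848, which overlap too, a change of 0.31 ± 0.46 (adjusted p = 0.893). Tlr3, with too few UMI for the test, had 28.8, 0 and 27.6 in NoStim and 71.1, 58.1 and 18.3 with Poly(I:C), from 11 UMI against 33. Tlr1 with Pam3cys was at 0.03 ± 0.81 (adjusted p = 0.996), and Ripk2 with MDP at -0.23 ± 1.13 (adjusted p = 0.998), with 95% intervals of -1.59 to 1.65 and -2.49 to 2.03.

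**Figure D3:**
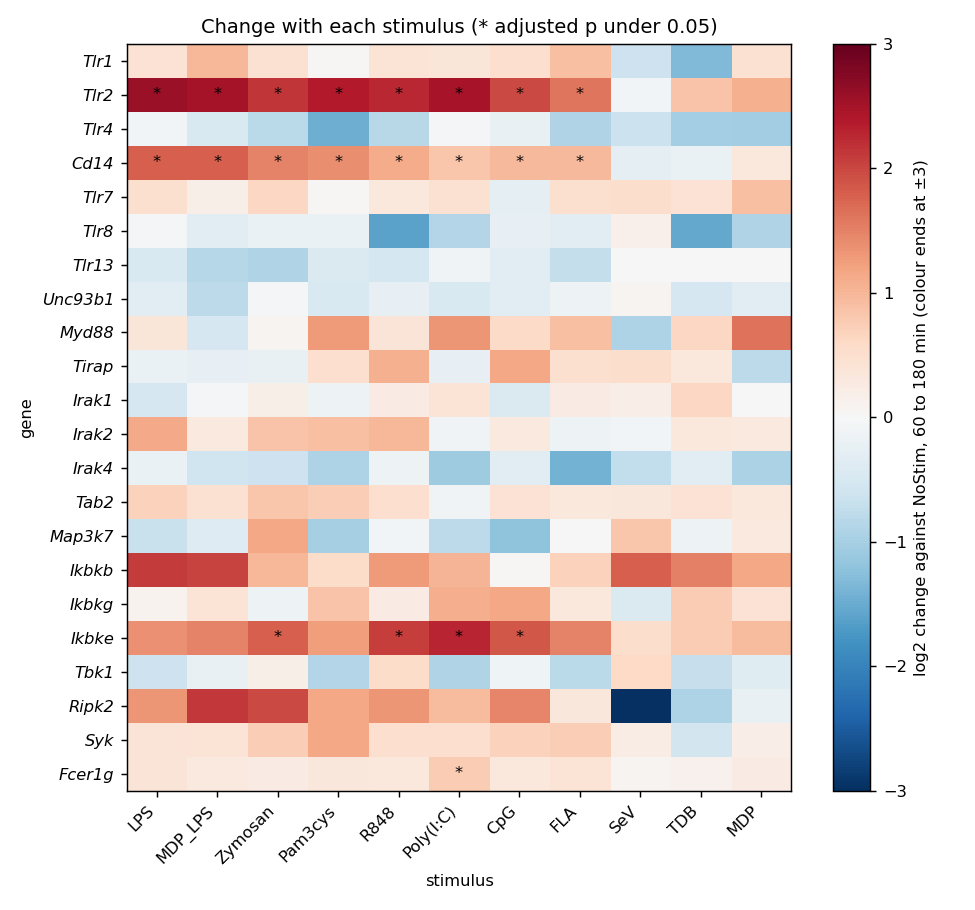
Log2 change of each of the 22 tested members (y axis) with each of the 11 stimuli against NoStim (x axis) at 60 to 180 min; colour gives the change and ends at ±3, and an asterisk marks an adjusted p under 0.05 (edgeR). Tlr2 and Cd14 carry asterisks with 8 stimuli, Ikbke with 4 and Fcer1g with Poly(I:C).

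The bases before Ikbke and Fcer1g are shown as examples from the 4 members called with Poly(I:C). They come from the RefSeq windows that end at an annotated transcript start (GRCm38.p6), and only bases outside the gene's annotated span are printed, 5′ to 3′ on the gene's strand, which is the minus strand for both. For Fcer1g these are 250 bases at chr1:171234350-171234599, and for Ikbke 212 at chr1:131279602-131279813, with 38 bases inside the gene left out. Capitals mark matches on either strand to a loose kappaB pattern, GGGNNNNNCC.

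Ikbke: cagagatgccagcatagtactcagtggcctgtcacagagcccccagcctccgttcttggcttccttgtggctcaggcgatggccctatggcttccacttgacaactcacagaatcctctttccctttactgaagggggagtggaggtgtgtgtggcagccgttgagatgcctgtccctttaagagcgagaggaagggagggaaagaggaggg

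Fcer1g: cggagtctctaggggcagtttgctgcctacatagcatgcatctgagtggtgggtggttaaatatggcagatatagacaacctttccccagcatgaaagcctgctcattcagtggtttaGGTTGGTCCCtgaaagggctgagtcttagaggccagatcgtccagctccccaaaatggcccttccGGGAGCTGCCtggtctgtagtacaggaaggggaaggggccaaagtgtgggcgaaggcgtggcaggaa

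Fcer1g held 2 separate matches, at 132 to 123 and 67 to 58 bases before the start, and Ikbke held none in its 250 bases. Tlr2, also called with Poly(I:C), held 2 in its window, which is not printed, and no window was available for Cd14. The pattern was common: of 32851 windows of 250 bases before a transcript start, over all genes, 45.8% held it, and 21 of the 38 windows of 27 members did. Interferon response elements in the form GAAANNGAAA were in 2.98% of all windows and in 2 of the 38, and AP-1 sites in the form TGANTCA in 6.75% and in 4. Neither was in the windows of Ikbke or Fcer1g. A match is a description of the letters and no evidence of binding.

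Over the time course the members that rose were Tlr2, Cd14, Ikbke and Ripk2. UMI of the 11 stimulated wells were summed per plate and time, and 120 to 180 min was compared with 15 to 45 min. Of 23 members tested 4 rose and 0 fell, where 3.09% of all 6434 genes rose and 0.466% fell; the median was 0.20 over the members and -0.02 over all genes. In the NoStim wells edgeR and DESeq2 called 0 members (4 with an unadjusted p under 0.05 in edgeR), where 0.311% of genes rose and 0.14% fell. A NoStim library was 1 well, against 11 summed in a stimulated library, so the NoStim test was the less sensitive. The SE of the log2 change was 0.63 in NoStim and 0.32 in stimulated wells for Tlr2, and 0.56 and 0.30 for Ikbke.

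Tlr2 had 64.4, 28.7 and 28.3 CPM in the stimulated wells of the DMSO, dCA and BRD-6989 plates at 15 min, 327, 297.5 and 263 at 120 min and 258, 242 and 310.0 at 180 min. The values of 120 min and later lay above all those of 15, 30 and 45 min, and the log2 change was 1.98 ± 0.32 (± SE, adjusted p = 3.08e-06, edgeR). Cd14 had 239, 218 and 329 at 15 min and 644, 512 and 532 at 90 min, and stood at 517, 624.7 and 643 at 180 min, a change of 1.05 ± 0.18 (adjusted p = 2.15e-05). On the DMSO plate no time after 90 min was higher, whereas the dCA and BRD-6989 plates had higher values at 150 and 180 min.

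Ikbke had 62.1, 86.0 and 41.6 CPM at 15 min and 294, 173 and 143.5 at 180 min, the highest time on each plate, a change of 1.32 ± 0.30 (± SE, adjusted p = 0.00141, edgeR). Ripk2, the kinase that carries the signal of Nod1 and Nod2, had 36.8, 2.21 and 0 at 15 min and 96.2, 22.8 and 31.9 at 180 min, a change of 2.06 ± 0.54 (adjusted p = 0.0102, edgeR). The Ikbke call ended without the DMSO plate (0.0590) and that of Ripk2 without the BRD-6989 plate (0.202). The Ripk2 plates overlapped between early and late times, the DMSO plate at 15 min lying above the other plates at 180 min. In NoStim wells pooled over plates Tlr2 ran between 0 and 107 CPM over the 8 times and Cd14 between 218 and 376, with the earliest and latest times at 92.9 and 84.2 for Tlr2 and 287 and 230 for Cd14. Ikbke ran between 36.3 and 101.3 there, with 101.3 at 15 min, above the 3 stimulated plates, and 53.6 at 180 min (12 and 7 UMI). Ripk2 ran between 0 and 54.4, with 50.7 at 15 min and 23.0 at 180 min (6 and 3 UMI).

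The difference between the time changes of stimulated and NoStim wells was not called for any member, where 0.591% of genes were higher and 0.404% lower. Cd14 came nearest, with 1.20 ± 0.33 on the log2 scale (adjusted p = 0.0513, edgeR), followed by Ikbke at 1.85 ± 0.64 (0.149), and by Fcer1g at 0.47 ± 0.20 and Tlr2 at 1.74 ± 0.72 (both 0.294). Of 23 members 7 had an unadjusted p under 0.05, and DESeq2 called 2. In the stimulated wells alone DESeq2 called 7 members, and edgeR on total read counts in place of UMI called 0.

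**Figure D4:**
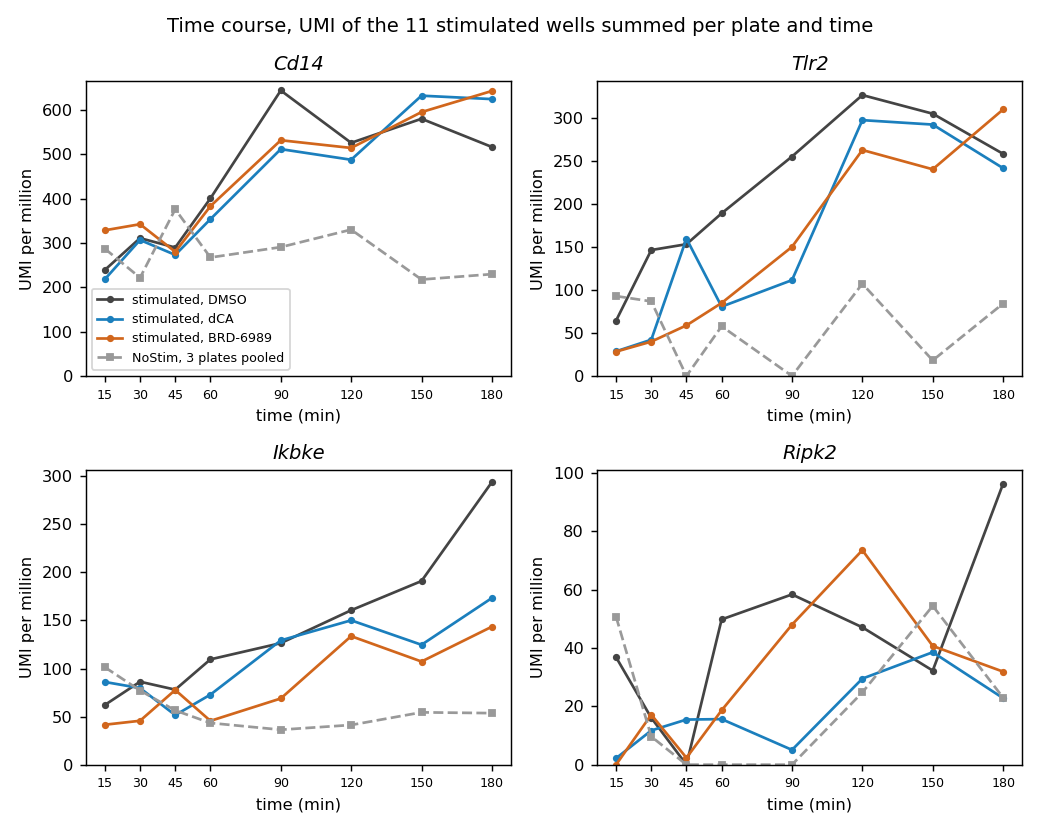
CPM (y axis, from 0) of Cd14, Tlr2, Ikbke and Ripk2 against time in min (x axis); each coloured line is a plate with its 11 stimulated wells summed, and the broken grey line is NoStim with 3 plates pooled. Cd14, Tlr2 and Ikbke stand above NoStim on all 3 plates from 90 min on, and Ripk2 does not.

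The inhibitors were compared with DMSO over the 12 stimulus conditions as blocks (36 libraries of all 8 times), in which 25 of the 36 members could be tested and 11 were under 5 UMI per library. With dCA Unc93b1 and Ripk2 fell and Fcer1g rose, and with BRD-6989 Unc93b1, Ikbke, Tlr2 and Tab1 fell. For dCA that is 1 of 25 higher and 2 lower, where 7.82% of 7310 genes were higher and 6.42% lower, and for BRD-6989 0 and 4, where 8.29% were higher and 8.04% lower. In either direction 3 of 25 members were called for dCA and 4 of 25 for BRD-6989, where 1041 and 1194 of 7310 genes were, so that the members' shares lay near those of all genes. Without the FLA libraries 1 member was called for dCA. The median log2 change was -0.17 for dCA and -0.13 for BRD-6989 against -0.01 and 0.01 over all genes. The 2 comparisons share the DMSO libraries. Inhibitor, plate and Rn45s share moved together: with each library's Rn45s share in the fit, 1 member was called for dCA and 0 for BRD-6989.

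Unc93b1, the chaperone of endosomal TLRs, had 104.1 to 287 CPM in the 12 DMSO libraries (median 187), 79.6 to 210.0 in dCA (median 119) and 86.1 to 186 in BRD-6989 (median 111). The ranges overlapped, and it was lower than DMSO in 10 of 12 conditions with dCA and 11 of 12 with BRD-6989. The log2 change was -0.55 ± 0.16 with dCA (± SE, adjusted p = 0.0113, edgeR) and -0.66 ± 0.16 with BRD-6989 (0.00152). With the Rn45s share as a covariate it was -0.53 (0.103) and -0.61 (0.523), and from 60 min on the BRD-6989 change was -0.47 (0.135).

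Ikbke had 60.9 to 208 CPM in DMSO (median 132), 41.4 to 167 in dCA (median 112) and 27.3 to 127 in BRD-6989 (median 82.1). It fell with BRD-6989, by 0.74 ± 0.17 on the log2 scale (± SE, adjusted p = 0.000903, edgeR), and was lower in 11 of 12 conditions. With dCA it stood at -0.29 ± 0.17 and was lower in 10 of 12. With the Rn45s share as a covariate its BRD-6989 change was -0.93 (adjusted p = 0.269).

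Tlr2 had 61.4 to 360 CPM in DMSO (median 175), 44.5 to 271 in dCA (median 163) and 27.0 to 248 in BRD-6989 (median 151). The ranges overlapped widely, and within conditions it was lower with BRD-6989 in 10 of 12. The change was -0.53 ± 0.16 with BRD-6989 (adjusted p = 0.0139, edgeR) and -0.35 ± 0.16 with dCA (adjusted p = 0.156). From 60 min on the BRD-6989 change was -0.38 (adjusted p = 0.191), with Rn45s share in the fit -0.69 (0.442), and with no block -0.47 (0.350).

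Tab1, a regulatory subunit of the TAK1 complex, had 3.25 to 54.2 CPM in DMSO (median 29.6) and 0 to 28.1 in BRD-6989 (median 10.3), from 111 and 53 UMI, and its change was -1.38 ± 0.43 (± SE, adjusted p = 0.0185, edgeR). Without Pam3cys the adjusted p was 0.0540, with read counts 0.0716 and with the Rn45s covariate 0.365. Ripk2 had 3.58 to 85.0 in DMSO (median 40.7) and 0 to 49.5 in dCA (median 13.3), from 145 and 62 UMI, lower in 10 of 12 conditions, and its change was -1.23 ± 0.40 (adjusted p = 0.0299). That call ended without Pam3cys (0.119), Poly(I:C) (0.0668), LPS (0.0867) or FLA (0.0820), with read counts (0.560), no block (0.0955) or times from 60 min on (0.0872). Fcer1g had 1078 to 1904 in DMSO (median 1236), 1128 to 1579 in dCA (median 1297) and 1065 to 1693 in BRD-6989 (median 1142), and its rise with dCA was 0.16 ± 0.06 (adjusted p = 0.0443). That call ended under DESeq2 (0.0758), without any 1 of CpG, FLA, R848, MDP, MDP_LPS, TDB or SeV (0.0589 to 0.158), and with read counts, no filter, the stricter filter, no TMM, no block, the covariate or single wells (0.0559 to 0.323).

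Other receptors and adaptors missed the threshold. With dCA Tlr13 stood at 0.45 ± 0.18 (adjusted p = 0.0915), Tlr7 at 0.44 ± 0.19 (0.132, higher in 11 of 12 conditions) and Tlr3 at -1.45 ± 0.56 (0.0753, lower in 9 of 12) (± SE, edgeR). Some members were called only under other settings. With dCA these were Tlr3 lower (DESeq2), Tlr13 higher (read counts) and Tlr7 higher (without SeV). Irak4 was called lower without CpG, and Tlr2 lower in single wells or without Zymosan. With BRD-6989 Irak1 was called higher on read counts. Cd14 lay close to DMSO with both, at 0.03 ± 0.09 with dCA (95% interval -0.15 to 0.21) and 0.08 ± 0.09 with BRD-6989 (-0.10 to 0.27), and Tlr4 at -0.17 ± 0.26 (-0.69 to 0.35) and 0.25 ± 0.25 (-0.25 to 0.75). At the doses used, which differ, dCA and BRD-6989 differed in 1 member, Fcer1g, at 0.20 ± 0.06 (adjusted p = 0.0351) and higher with dCA in 11 of 12 conditions, where 1.38% of genes were higher and 0.752% lower. That call ended without CpG, FLA, R848, MDP or MDP_LPS (adjusted p = 0.0501 to 0.136, edgeR), and with no filter, no TMM, no block, the covariate, times from 60 min on or single wells (0.0893 to 0.301). Ikbke was higher with dCA than with BRD-6989 in 11 of 12 conditions as well, at 0.45 ± 0.17 (adjusted p = 0.198).

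**Figure D5:**
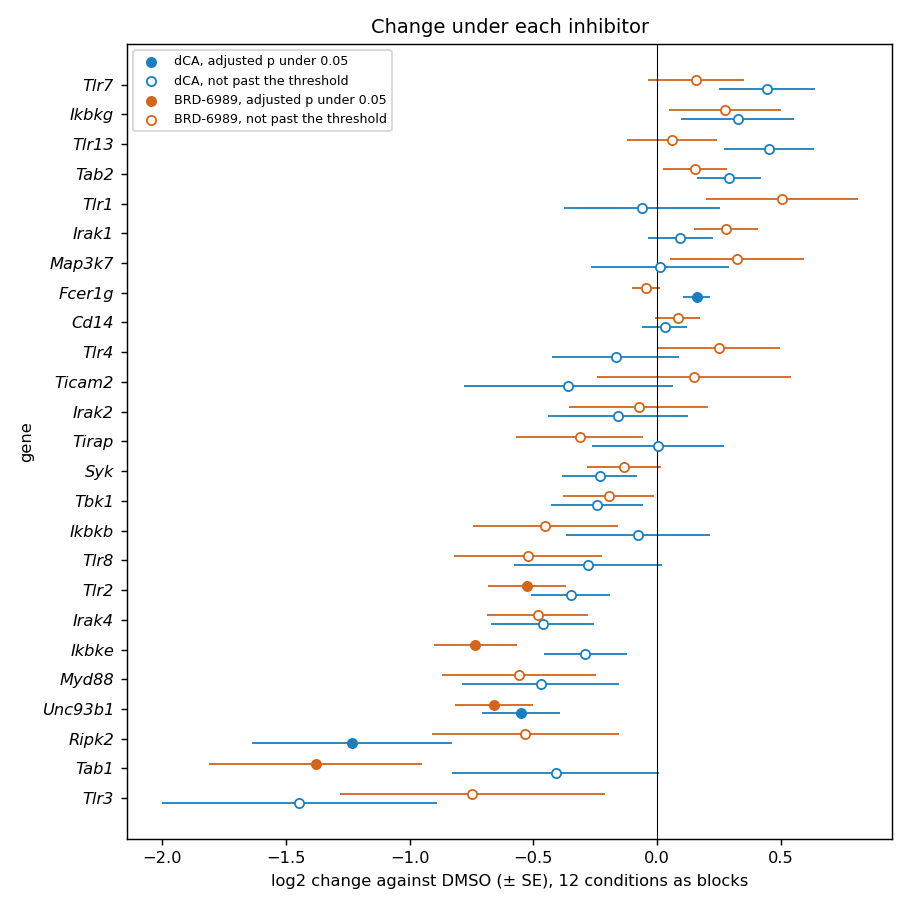
Log2 change against DMSO (x axis, ± SE) of the 25 tested members with dCA and with BRD-6989, 12 stimulus conditions as blocks; filled points have an adjusted p under 0.05 (edgeR). The filled points are Unc93b1 with both, Ripk2 and Fcer1g with dCA, and Ikbke, Tlr2 and Tab1 with BRD-6989.

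In NoStim wells alone, where 21 members averaged 1 UMI or more per well, 0 members were called with either inhibitor in edgeR or in DESeq2, with 1 and 0 at an unadjusted p under 0.05. There 0.771% of 5834 genes were higher and 0.137% lower with dCA, and 0.754% and 0.309% with BRD-6989. The member under 0.05 was Unc93b1, lower with dCA at -1.39 ± 0.61 (log2 ± SE, adjusted p = 0.498, edgeR). Single wells held few UMI of most members, and standard errors were often large, for example 1.10 for Tlr2 with BRD-6989. The 0 calls are thus no sign that the inhibitors left these genes unchanged. Whether the inhibitors changed the response to stimulation was tested as the difference between their effects in stimulated and NoStim libraries from 60 min on. For both inhibitors edgeR and DESeq2 called 0 members, and 0% of 5771 genes were higher or lower; the unadjusted p was under 0.05 for 354 genes with dCA and 280 with BRD-6989. For Tlr2 this difference was -1.36 ± 0.77 with dCA and 0.53 ± 0.88 with BRD-6989, and for Cd14 -0.49 ± 0.44 and -0.32 ± 0.44, with standard errors too large to show a change of the size seen for single members.

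Other genes of the pathways were counted in the same fits. A list of 66 further genes, 65 of them in the table, held other receptors, transcription factors and feedback regulators. As a mean of 11 stimuli 9 of 45 tested were higher and 0 lower (2.13% and 0.503% of all genes), among them Nfkb2 (3.74 ± 0.58), Traf1 (2.99 ± 0.65), Nfkbia (2.90 ± 0.18), which encodes the inhibitor of NF-kappaB, and Malt1 (2.42 ± 0.53) (log2 ± SE, edgeR). Over time 11 of 49 rose in stimulated wells and 0 fell (3.09% and 0.466% of all genes), the largest being Clec4e at 2.19 ± 0.27. With dCA 4 of 54 rose and 10 fell (7.82% and 6.42% of all genes), and with BRD-6989 4 rose and 14 fell (8.29% and 8.04%). The scavenger receptor Cd36, a partner of Tlr2, rose with both, by 1.23 ± 0.08 and 1.48 ± 0.08, and Irf7, a factor downstream of endosomal TLRs, fell with BRD-6989 by 1.83 ± 0.16. Here too inhibitor, plate and Rn45s share moved together, and no other settings are given for these genes.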

How the data were processed

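BMDM wells of 288 combinations of pretreatment, stimulus and time were measured by 3' digital gene expression and a panel of 58 reporters. The authors deposited UMI counts, total read counts and reporter counts for each well, raw and not normalized; per the labels, poly(A) RNA was isolated with magnetic beads and copied with primers that carry a well tag. Per the submitters' processing notes, BWA, edgeR and mm10 were used; versions, annotation and strand: not given in the sources used here. The members and lists were chosen with earlier results of these data known.

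Wells were grouped by their labels, and UMI counts without Rn45s (49.15% of all UMI) were summed into 36 libraries (48 for time, and 24 NoStim wells singly). Tests were 2-sided, by edgeR 4.0.16 (TMM, quasi-likelihood) in R 4.3.3, adjusted by Benjamini-Hochberg over all genes averaging 5 UMI or more per library (1 per well), with 0.05 as threshold. Standard errors are the log2 change divided by the square root of F. The fits were checked on simulated counts. The receptors of each ligand and the members called were named with their values. Of the 36 members, 27 matched a RefSeq promoter. Alternatives were DESeq2 1.42.0, read counts, other filters, no TMM, no block, the Rn45s share as covariate, single wells, other times, and leaving out a stimulus or plate. Tables and figures used Python 3.11, pandas 2.3.3, scipy 1.17.1 and matplotlib 3.10.9.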

Additional observations from a re-analysis of the deposited data

Results flagged for a closer look

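In the NoStim wells, 21 sets of 8 wells (a member on a plate, averaging 5 UMI or more per well) were looked at for a well far from the others, which chance gives in about 1 of 20 sets, and 2 were found. Tbk1 had 891 CPM (UMI counts-per-million without Rn45s) in the DMSO well of 150 min, where the other 7 wells ran from 0 to 259.9. Irak1 had 420.2 in the dCA well of 180 min, where the others ran from 82.6 to 208.

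The effects of the inhibitors differed in 1 member by a test of the difference itself. Fcer1g was higher with dCA than with BRD-6989 by 0.20 on the log2 scale (adjusted p = 0.0351, edgeR), a call that ended under several other settings.

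The responses to the 11 stimuli differed from each other in 4 members by a test added after the data were seen. The F values were 19.1 for Cd14, 8.64 for Tlr2, 3.36 for Fcer1g and 3.30 for Ikbke (edgeR, adjusted p from 1.20e-11 to 0.0402).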

How the results depend on the processing

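Of the counts of called members under other settings, 222 stayed within 1.5 times the count given above and 41 did not. The 222 include counts that were 0 in both, and a count that stayed could be made up of other members. Of the refitted log2 changes of called members, 382 passed the threshold and 113 no longer did; the direction changed in none of these. For dCA against DMSO (3 members) 1 was called with the stricter filter, with no replicate block and with the Rn45s share as a covariate, and 1 to 4 with a stimulus left out. For BRD-6989 (4) 0 were called with that covariate, 1 from 60 min on, and 3 to 4 with a stimulus left out. Between the inhibitors (1) 0 were called with no filter, no TMM, no replicate block, the covariate, times from 60 min on and single wells, and 0 to 1 with a stimulus left out. In single wells of the DMSO plate alone 0 members were called for the mean of 11 stimuli, Pam3cys, CpG, FLA and Zymosan, and 1 for Poly(I:C), R848 and MDP_LPS. With a plate left out 1 to 2 were called for Pam3cys and Zymosan, 2 to 3 for Poly(I:C), 0 to 2 for CpG, 0 to 1 for FLA and 2 for the mean. Over all 8 times 1 was called for CpG and 1 for FLA; for FLA, read counts gave 1 and no replicate block 0. For the time change in stimulated wells (4) DESeq2 called 7 and read counts 0, and for its difference from NoStim (0) DESeq2 called 2 and the stricter filter 1. The causes were not tested. The block was the stimulus for the inhibitors, the pretreatment plate for the stimuli and the time in NoStim wells; the labels give no replicate numbers.

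Over all genes the counts called moved too: from 1041 to 595 for dCA and from 1194 to 181 for BRD-6989 with the covariate (793 from 60 min on), from 156 to between 53 (no replicate block) and 257 (DESeq2) between the inhibitors, from 152 to 75 for the mean of stimuli with no replicate block and to 77 to 97 with a plate left out, and from 229 to between 32 (read counts) and 371 (DESeq2) for time. For LPS they went from 241 to 56 in the DMSO plate alone, and for MDP_LPS from 223 to 61. For NoStim wells DESeq2 raised the time count from 29 to 202. Depth limits the low members: 11 of 36 were under 5 UMI per library and could not be tested.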
